A study of Mus musculus with 6 samples.

Results

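Sprouty and Spred proteins are inhibitors that receptor tyrosine kinase signalling switches on against itself, and Etv4, Etv5 and Phlda1 are genes that the kinase ERK induces. These 9 genes, Spry1, Spry2, Spry4, Spred1, Spred2, Spred3, Etv4, Etv5 and Phlda1, were taken by symbol from the 29703 symbols of a count table of mouse lung. Each symbol stood on 1 line, and all 9 passed the filter on low counts. The groups were lungs of balb/c mice taken 14 days (D14, 3 libraries) and 0 days (D0, 3 libraries) after K7M2 cells, a metastatic mouse osteosarcoma line of the same strain, had been implanted orthotopically. Both groups carried the implanted line, and no D14 group without implanted cells was analysed here. What the growing tumour, the operation, 14 days of ageing and the day of collection each did to these values therefore cannot be told apart. The labels speak of biological replicates from independent experiments, but give no age or sex and do not say how many mice went into a library. The spread behind each p-value is that between libraries. The study's stated subject is the lung before metastases form.

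Receptor tyrosine kinases such as the FGF and EGF receptors signal through the adaptors Grb2 and Sos to Ras, then through Raf and MEK to ERK. Sprouty proteins block this route between receptor and Ras or Raf, and Spred proteins bring the Ras inhibitor neurofibromin to the membrane. In the developing mouse lung, Fgf10 from the mesenchyme acts on epithelial Fgfr2, where Etv4, Etv5 and Sprouty genes are known outputs, and Sprouty genes also restrain the growth of vessels.

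The 9 genes were selected on results of these same libraries, the D14 over D0 difference of Spry4 among them. The values of the 9 genes in this comparison are therefore a description, and the fold changes and adjusted p-values come from the fit over all 17686 genes tested. Library totals ran from 16171595 to 17385006 counts at D14 and from 14878101 to 16001097 at D0. D0 replicate 3 stood apart from the other libraries on the first principal component, at 82.85 against -41.48 to 15.71, and values without it are given beside the results that it moved most. The lung label was borne out by its markers. Sftpc, the surfactant protein of alveolar type 2 cells, had 12870 to 18300 CPM at D14 and 12450 to 34630 CPM at D0, where CPM is the count relative to the library total after TMM scaling. Of 8 markers of the osteoblast lineage, from which the tumour line derives, 6 had a line in the table. They summed to 44.2 to 49.8 CPM at D14 and 28.5 to 43.4 CPM at D0, mostly from genes other than Bglap and Sp7, which had at most 2 counts in a library. Reads of K7M2 cells and of host cells are not told apart in these counts, and their part in the results was not tested.

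The regions just before the start sites of 4 of the genes are shown because these are the close relatives that Spry4 is set against below. RefSeq promoter windows of 6 of the 9 genes were used (GRCm38.p6). The start regions of Spry4, Etv4 and Phlda1 were not examined, so the motif results below do not cover them. The lines run 5' to 3' on the gene's own strand and end at the base before the first annotated start in RefSeq or GENCODE, with 250 bases each for Spry1, Spry2 and Spred1 and 183 for Spred2. Capitals mark a GC box, GGGCGG on either strand.
Spry1 (chr3:37639697-37639946, plus strand): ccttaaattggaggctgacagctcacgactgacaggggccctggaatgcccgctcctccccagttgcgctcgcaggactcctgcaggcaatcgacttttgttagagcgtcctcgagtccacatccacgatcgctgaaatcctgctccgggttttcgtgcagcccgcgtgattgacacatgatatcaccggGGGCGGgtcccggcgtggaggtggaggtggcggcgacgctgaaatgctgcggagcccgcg
Spry2 (chr14:105896820-105897069, minus strand): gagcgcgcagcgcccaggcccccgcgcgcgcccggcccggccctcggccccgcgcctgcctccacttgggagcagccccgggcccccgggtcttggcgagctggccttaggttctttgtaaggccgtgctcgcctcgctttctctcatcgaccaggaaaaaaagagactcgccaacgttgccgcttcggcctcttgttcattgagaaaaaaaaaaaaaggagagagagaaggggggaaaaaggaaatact
Spred1 (chr2:117120821-117121070, plus strand): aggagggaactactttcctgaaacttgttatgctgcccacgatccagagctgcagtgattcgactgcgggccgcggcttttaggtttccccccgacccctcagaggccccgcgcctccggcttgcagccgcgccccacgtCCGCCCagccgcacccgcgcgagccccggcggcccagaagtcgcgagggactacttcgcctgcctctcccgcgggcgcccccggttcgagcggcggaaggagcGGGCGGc
Spred2 (chr11:19924192-19924374, plus strand): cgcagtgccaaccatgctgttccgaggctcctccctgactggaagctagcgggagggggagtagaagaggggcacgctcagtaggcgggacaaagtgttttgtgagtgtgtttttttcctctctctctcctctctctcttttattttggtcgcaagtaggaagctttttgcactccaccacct

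The GC box was found in the 250 bases before the start of Spry1, Spred1, Spred2, Spred3 and Etv5 and in 32.7% of all 32851 windows of that length. In Spred2 it lay 40 bases before the RefSeq start, past the stretch shown. Searches on either strand for an Ets site (CCGGAAG), an AP-1 site (TGANTCA), a cyclic AMP response element (TGACGTCA), an E-box (CACGTG) and the CArG box of serum response factor gave no match in the windows of the 6 genes, over the full 250 bases before the RefSeq start. These motifs occur in 6.91%, 6.75%, 1.55%, 6.02% and 1.47% of all windows. With matches to 1 motif alone, no overlap between motifs arose. G and C made up 62.4% of the bases in the windows of Spry1 and Spry2, 70.8% in Spred1 and 56.0% in Spred2, against a median of 52.4% over all windows.

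Among the Sprouty genes, Spry4 rose about 4-fold at D14, while Spry1 and Spry2 did not pass the test. Spry4, a Sprouty inhibitor on chr18:38586247-38601415 in GRCm38, had 197, 203 and 182 CPM in the D14 libraries and 43.7, 58.3 and 44.0 CPM in the D0 libraries. The lowest D14 library lay far above the highest D0 library, and the libraries of each day lay close together. Spry4 averaged 194 ± 10.7 CPM at D14 and 48.6 ± 8.35 CPM at D0 (SD, n = 3 each). These levels rest on 2844 to 3399 counts at D14 and 626 to 912 counts at D0. The log2 fold change was 2.00 (SE 0.17, 95% interval 1.603 to 2.39), the third smallest p among all genes, with an adjusted p of 0.0224 (edgeR quasi-likelihood test). Of the 9 genes, Spry4 was the 1 that passed an adjusted p of 0.05, against 0.0339% of all genes tested and 0.017% passing on the higher side. That gene was known when the list was made, so the count is not evidence about the list. The adjusted p of Spry4 was 0.0148 without D0 replicate 3, but it lay between 0.0616 and 0.152 without any 1 of the other 5 libraries, where the log2 fold change was 1.93 to 2.15. The pair of non-coding genes annotated on the opposite strand within Spry4 had at most 2 counts in a library.

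Spry1, a Sprouty gene on chr3:37639947-37644598 that limits FGF and GDNF signalling in development, had the highest level of the 9 genes per length of transcript on both days (CPM per kb, given below). Spry1 had 217, 210.0 and 207 CPM at D14 and 172, 190.3 and 185 CPM at D0. The D14 libraries all lay above the D0 libraries, by a small margin, and the fitted log2 difference was 0.21 (SE 0.13, 95% interval -0.10 to 0.52, adjusted p = 0.496). Gm42922, annotated on the opposite strand of Spry1, had 26 to 64 counts in a library, so it can add little to these values. Spry2, on chr14:105891947-105896819, which restrains Fgf10 signalling in lung branching in mice, had 56.4, 49.1 and 45.7 CPM at D14 and 35.9, 56.3 and 51.8 CPM at D0. Its groups overlapped, D0 replicate 1 was lowest, and the log2 fold change was 0.07 (95% interval -0.39 to 0.53). The sign turned without D14 replicate 1 or D0 replicate 1. Spry3, a further Sprouty gene outside the list, had 4 to 11 counts in a library.

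**Figure D1:**
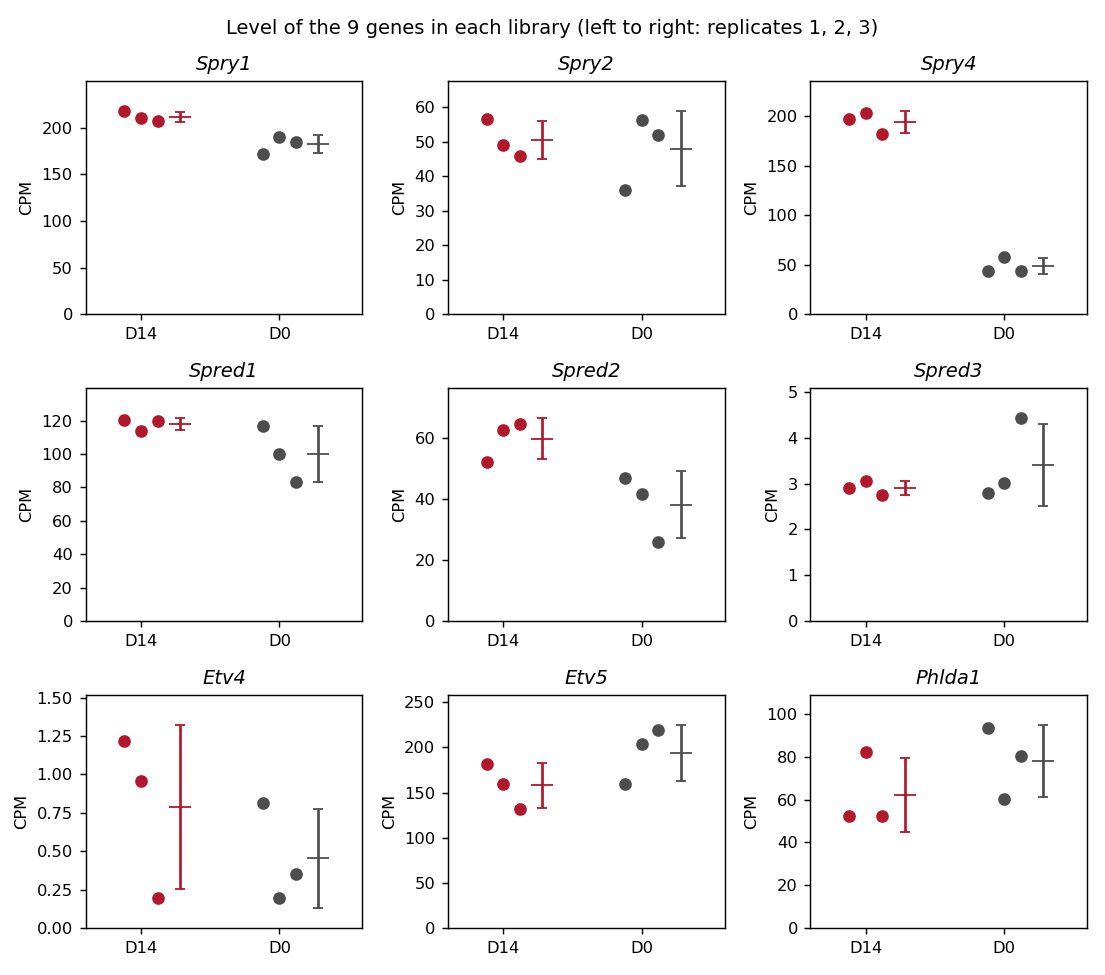
Level of each of the 9 genes in CPM (y axis, from 0) in the 3 D14 libraries (red) and the 3 D0 libraries (grey), with the mean and SD beside the points. Spry4 stands at 182 to 203 CPM at D14 and at 43.7 to 58.3 CPM at D0. Spry1 and Spred2 also lie higher in each D14 library, with smaller gaps, and the remaining genes overlap between the days.

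The mix of Sprouty transcripts differed between the days. Spry4 made up 41.8%, 44.0% and 41.9% of the counts of the 3 Sprouty genes in the D14 libraries and 17.3%, 19.1% and 15.7% in the D0 libraries. Spry1 made up 45.4% to 47.6% at D14 and 62.4% to 68.4% at D0, and Spry2 made up 10.5% to 11.99% at D14 and 14.2% to 18.5% at D0. The shares of Spry4 were narrow within each day and far apart between them. The ratio of Spry4 to Spry1 counts was 0.906, 0.968 and 0.879 at D14 and 0.254, 0.306 and 0.238 at D0, a comparison within a library that no scaling factor enters. An exact permutation test of such a ratio with 3 libraries against 3 can give no p below 0.1, so none was run. The summed level of the other 8 genes was 624 to 685 CPM per library at D14 and 629 to 655 CPM at D0, and the ranges overlapped. With Spry4 included, the sum was 807 to 885 CPM at D14 and 673 to 713 CPM at D0, and the ranges did not overlap. Spry4 was known when the list was made, so this gap is not evidence about the list.

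**Figure D2:**
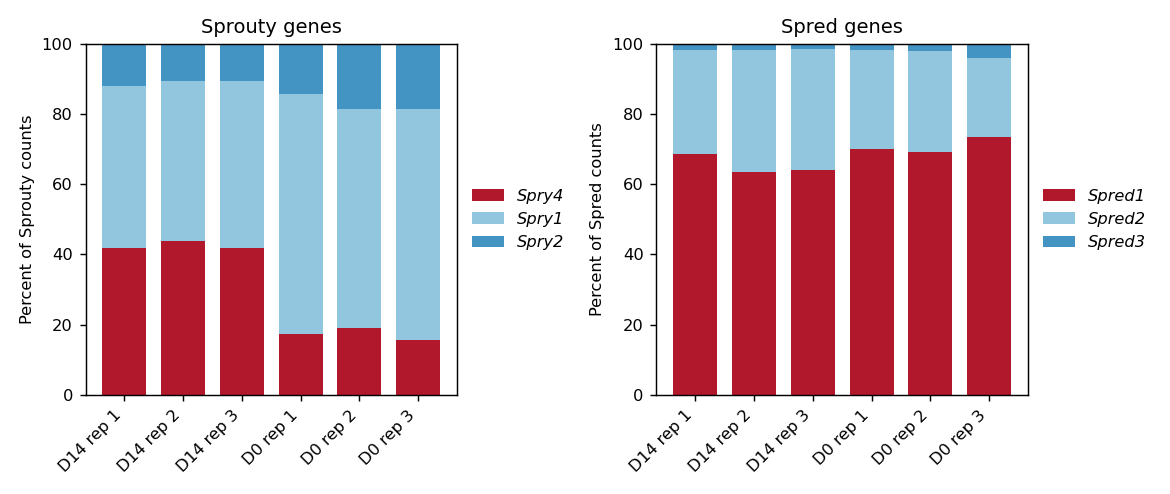
Percent of the counts of the 3 Sprouty genes (left) and of the 3 Spred genes (right) that each gene took in each library, D14 libraries first. Spry4 took 41.8% to 44.0% of Sprouty counts at D14 and 15.7% to 19.1% at D0, whereas Spred1 took most Spred counts in every library.

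None of the Spred genes passed the test, although Spred2 lay higher in each D14 library than in any D0 library. Spred2, on chr11:19924375-20024026, had 52.3, 62.8 and 64.7 CPM at D14 and 47.1, 41.7 and 25.8 CPM at D0. The groups did not overlap, and the lowest value was that of D0 replicate 3, the library that stood apart. The log2 fold change was 0.65 (SE 0.23, adjusted p = 0.364), and it was 0.43 without D0 replicate 3. Spred1, whose loss of function in humans causes Legius syndrome, lies on chr2:117121374-117182279. Spred1 had 120.2, 114 and 119.7 CPM at D14 and 117, 99.9 and 83.4 CPM at D0, and its groups overlapped (log2 fold change 0.24, SE 0.16, adjusted p = 0.522). Without D0 replicate 3 its log2 fold change was 0.12. Spred3, on chr7:29158829-29170411, a member that binds the receptor Kit poorly, had 43 to 50 counts at D14 and 47 to 63 at D0. Its log2 fold change of -0.23 (SE 0.28) turned positive without D0 replicate 3, at 0.01. Ranges that did not overlap between the days were seen for 3 of the 9 genes, Spry4, Spry1 and Spred2, each higher at D14. Over all genes tested 21.6% did not overlap, 10.9% higher and 10.7% lower at D14. An unadjusted p under 0.05 was given for 2 of the 9, Spry4 and Spred2, both higher, against 12.6% of all genes tested, 5.48% higher and 7.09% lower at D14. Without D14 replicate 3 Spry4 alone of the 9 had such a p.

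Across the 6 libraries Spred1 and Spred2 varied together (Pearson r of log2 CPM 0.921, n = 6), and both ran against Spred3 (-0.921 and -0.861) and Etv5 (-0.799 and -0.849). Spry4 and Spry1 had an r of 0.946, and Spry4 and Spry2 one of 0.294. These values describe 6 libraries that share the split by day and the position of D0 replicate 3.

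Of the ERK-induced genes, Etv5 and Phlda1 had log2 fold changes below 0, and Etv4 was barely detected. Etv5, an Ets transcription factor that maintains alveolar type 2 cells in mice, lies on chr16:22381309-22439719. It had 182, 159.8 and 132 CPM at D14 and 159.5, 203 and 219 CPM at D0. The groups overlapped, and the log2 fold change was negative, at -0.30 (SE 0.19, 95% interval -0.74 to 0.14, adjusted p = 0.503). Phlda1, a pleckstrin homology-like protein linked to cell death and growth factor signalling, on chr10:111506286-111508645, had 52.2, 82.3 and 52.2 CPM at D14 and 93.8, 60.2 and 80.3 CPM at D0. Its log2 fold change was -0.33 (SE 0.24, adjusted p = 0.558), again with overlapping groups. Etv4, a close relative of Etv5 on chr11:101769742-101785371, had 21, 15 and 3 counts at D14 and 14, 3 and 5 counts at D0. At this depth its log2 fold change of 0.78 had a 95% interval of -0.96 to 2.52, so no difference was detectable. The upper bounds for Etv5 and Phlda1 (0.14 and 0.24) lie below the lower bound for Spry4 (1.603). The difference between genes was not itself tested. Over the 14 alternatives run, Spry4, Spry1, Spred1 and Spred2 kept a positive sign and Etv5 and Phlda1 a negative sign. Etv4 kept a positive sign over the 13 that gave it a value, since it was below the filter of 1 CPM in 3 libraries.

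**Figure D3:**
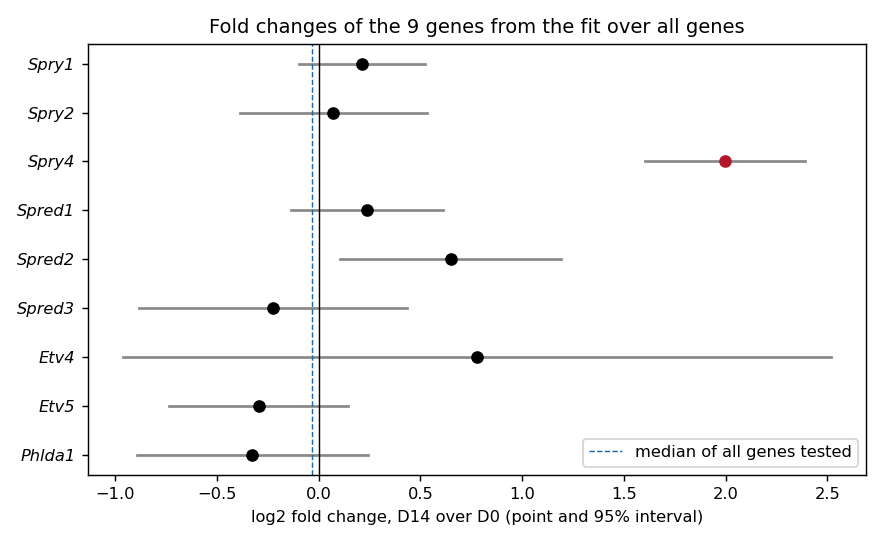
log2 fold change of D14 over D0 (x axis) for each of the 9 genes, as a point with its 95% interval. Spry4 (red, the gene past an adjusted p of 0.05) lies at 2.00 with an interval of 1.603 to 2.39, the blue dashed line is the median of all genes tested at -0.03, and the interval of Spred2 alone among the others leaves 0 out.

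Levels can be set side by side between genes after division by the length of the longest coding transcript, in CPM per kb. At D14 Spry1 led with 76.3 ± 1.85, followed by Spry4 with 40.8 ± 2.26, Etv5 with 39.7 ± 6.35, Phlda1 with 31.9 ± 8.93 and Spry2 with 24.2 ± 2.63 CPM per kb (SD, n = 3). Spred1 with 19.6 ± 0.575 and Spred2 with 13.5 ± 1.495 came next, and Spred3 and Etv4 were below 1. Neighbours from Spry4 down to Spry2 overlapped in their libraries, and the other neighbours did not overlap. At D0 the order was Spry1 with 65.8 ± 3.34, Etv5 with 48.8 ± 7.76, Phlda1 with 40.1 ± 8.67, Spry2 with 23.0 ± 5.14 and Spred1 with 16.6 ± 2.77 CPM per kb. Spry4 followed with 10.2 ± 1.76 and Spred2 with 8.59 ± 2.48 CPM per kb. At D0 the neighbours that overlapped were Etv5 and Phlda1, Spry2 and Spred1, and Spry4 and Spred2. Spry4 thus stood at rank 2 of the 9 genes at D14 and at rank 6 at D0. No stretch of 31 bases was shared between coding transcripts of any pair of the 9 genes, so a read that holds such a stretch points to 1 of them.

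Marker levels of endothelium and of alveolar type 2 cells, both of which use receptor tyrosine kinases, differed between libraries. The 10 endothelial markers summed to 5761 to 5857 CPM at D14 and to 5232, 3765 and 2895 CPM in D0 replicates 1, 2 and 3. Of the 10, 9 had a positive log2 fold change, with a median of 0.59, against 46.9% positive over all genes tested. Above D0 without overlap lay 6 of the 10, against 10.9% of all genes tested. None of the 10 was at 0. In bulk tissue, fewer cells of a type and less RNA per cell cannot be told apart. Spry4 was 3.39%, 3.53% and 3.11% of the endothelial sum at D14 and 0.835%, 1.55% and 1.52% at D0, and its groups stayed apart on that scale. Spred2 was 0.902%, 1.09% and 1.10% of that sum at D14 and 0.900%, 1.11% and 0.893% at D0, and its groups overlapped. Markers of alveolar type 2 cells summed to 28200, 27500 and 21380 CPM at D14 and 21220, 30260 and 47410 CPM at D0. Etv5 was lowest in D14 replicate 3 and highest in D0 replicate 3. The sum of type 2 markers was lowest in D0 replicate 1 and highest in D0 replicate 3. Etv5 was 0.581% to 0.646% of that sum at D14 and 0.462% to 0.752% at D0, lowest in D0 replicate 3. The part of these cell types in the values of Spry4, Spred2 and Etv5 was not tested.

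**Figure D4:**
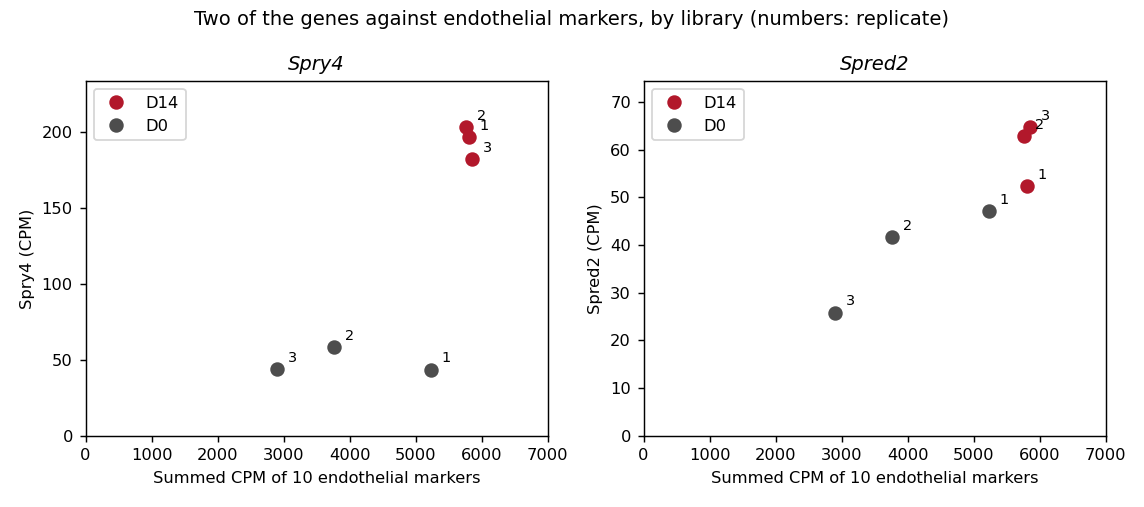
Spry4 (left) and Spred2 (right) in CPM against the summed CPM of 10 endothelial markers, 1 point per library, numbered by replicate, D14 in red and D0 in grey. Among the D0 libraries Spred2 is higher where the endothelial sum is higher, the D14 libraries have nearly equal sums, and Spry4 separates the days at 182 to 203 against 43.7 to 58.3 CPM.

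The rest of the pathway was read from lists of ligands, receptors, adaptors, kinases, inhibitors and targets, 145 genes without the 9, of which 134 were tested. With the edgeR quasi-likelihood test 0 of them passed an adjusted p of 0.05. At an unadjusted p under 0.05 stood 30 of the 134 (22.4%), 23 higher and 7 lower at D14, against 12.6% of all genes. With 1 library left out this count ran from 18 (without D14 replicate 3) to 45 (without D0 replicate 1), with 19 without D14 replicate 2, and the count over all genes from 1212 to 3395. DESeq2 called 9 of them, 8 higher (Cbl, Egr1, Egr3, Errfi1, Fgf10, Fos, Fosl2 and Plaur) and 1 lower (Ier3), and limma-voom called 0. The median log2 fold change of the 134 was 0.21, against -0.03 for all genes tested, and 67.9% were positive against 46.9%. These lists, and that of the immediate early genes below, were chosen with earlier results of these data known. Their counts, shares and medians are therefore a description and not evidence about the pathway. The fold changes below are log2 of D14 over D0, and none passed in edgeR. Several close to 0 turned sign when 1 library was left out, among them Fgf1, Fgfr2, Mapk3, Rhoa and Dusp6.

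Of 9 FGF ligands tested 6 were positive, with a median of 0.29. Fgf10, the mesenchymal FGF of lung branching, had 33.8, 37.3 and 35.3 CPM at D14 and 19.5, 19.7 and 19.0 CPM at D0. Its groups were tight and did not overlap (0.87, SE 0.13, adjusted p = 0.121). Fgf18, an FGF of alveolar development, lay below D0 in each D14 library (10.9 ± 2.11 CPM at D14 and 18.5 ± 3.24 CPM at D0, SD, n = 3; -0.77, adjusted p = 0.347). The most abundant ligands of the list, Fgf1 and Fgf2, which act on several FGF receptors, had values of -0.10 and 0.52. Among 8 FGF receptors and co-receptors (median 0.16), Fgfr1 stood at 0.37 (adjusted p = 0.364), and Fgfr2, the epithelial receptor of Fgf10, at -0.04, with 175 ± 24.7 CPM at D14 and 181 ± 28.8 CPM at D0. Fgfr3, another FGF receptor, stood at 0.54 (0.26 without D0 replicate 3), and Klb, the co-receptor of FGF21, at 2.13 (SE 1.23), with 0.174, 1.34 and 8.33 CPM at D14 and 0.116 to 1.12 CPM at D0, and at 0.01 without D14 replicate 3. EGF family ligands had a median of -0.04, with 4 of 9 positive. Of them Hbegf stood at 0.31, Tgfa at -0.37, Nrg2 at -0.31 and Btc at -0.34, all with overlapping groups. D14 replicate 2 set the sign of Hbegf and Tgfa, which stood at -0.02 and 0.11 without it.

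Receptor tyrosine kinases of other families were positive in 15 of 17 genes, against 46.9% of all genes tested, with a median of 0.42. Above D0 without overlap lay 6 of the 17, against 10.9% of all genes tested. Pdgfra, the PDGF receptor of lung fibroblasts, stood at 0.71 (adjusted p = 0.364) and Epha2, an ephrin receptor, at 0.53 (adjusted p = 0.364). The endothelial receptors Kdr and Tek stood at 0.62 and 0.79 with adjusted p-values of 0.442 and 0.395, and both are among the endothelial markers above. Without D0 replicate 3 Kdr stood at 0.33 and Tek at 0.49. Adaptors and Ras regulators were positive in 13 of 17 genes (median 0.28). Cbl, a ubiquitin ligase that marks active receptors for degradation and that binds Sprouty proteins, had 105, 112 and 128 CPM at D14 and 45.5, 32.1 and 56.8 CPM at D0. Each D14 library lay well above each D0 library (1.36, SE 0.22, adjusted p = 0.177), and Cbl passed without D0 replicate 3 (adjusted p = 0.0497). Sos2, an exchange factor of Ras, stood at 0.53, Rasgrp3, another such factor, at 0.63 (0.36 without D0 replicate 3), and Ptpn11, the phosphatase SHP2, at 0.25. Ras, Raf, MEK and ERK genes had a median of 0.10, with Rps6ka3, a kinase that ERK activates, at 0.68 (adjusted p = 0.380) and Mapk3, which encodes ERK1, at -0.05 (adjusted p = 0.895). The other binding partners of Sprouty and Spred proteins had Siah2, a ubiquitin ligase of Sprouty2, at 0.57, Rhoa at 0.11 and Ppp2ca, a phosphatase catalytic subunit, at 0.23, and the whole list of 12, Cbl included, had a median of 0.17.

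**Figure D5:**
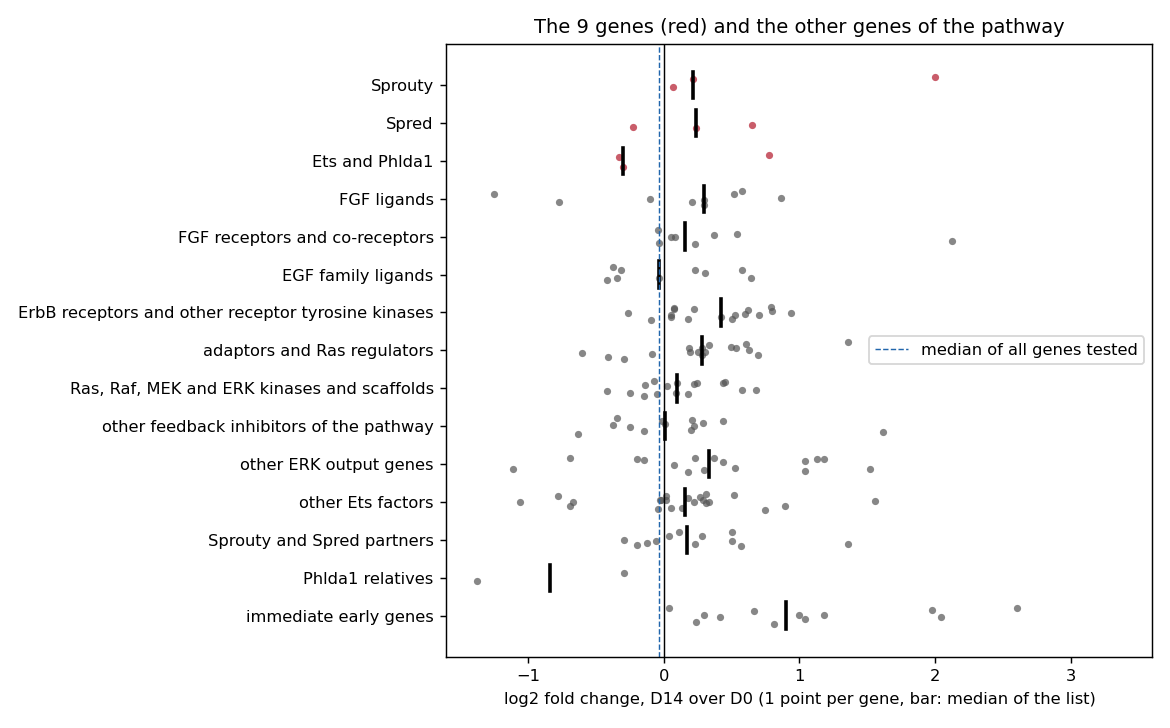
log2 fold change of D14 over D0 (x axis) for each tested gene of the 9 genes (red) and of the lists of the pathway (grey), with a black bar at each list's median and a blue dashed line at the median of all genes tested. Spry4 at 2.00 lies apart from its relatives, and the list medians run from -0.83 for the pair of Phlda1 relatives to 0.90 for the immediate early genes.

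The other feedback inhibitors of the pathway had a median of 0.01, with 7 of 13 positive. Errfi1, which inhibits the EGF receptor, had 924, 969 and 1011 CPM at D14 and 99.0, 410.4 and 438 CPM at D0. D0 replicate 1 was far below the other D0 libraries, and the log2 fold change was 1.62 (SE 0.49, adjusted p = 0.362). Dusp6, the phosphatase of ERK that FGF signalling induces, had 127, 147 and 125 CPM at D14 and 108, 159 and 175 CPM at D0, at -0.14 (SE 0.20) with overlapping groups. Dok2, an adaptor of blood cells that dampens Ras, stood at -0.63 (adjusted p = 0.364). Other ERK output genes were positive in 12 of 16 genes (median 0.33). Fosl2, an AP-1 factor, stood at 1.52 (SE 0.23, adjusted p = 0.121), Mcl1, a survival protein, at 0.37, and Ccnd1, cyclin D1, at 0.29. Ier3, an early response gene, stood at -1.11 (SE 0.20, adjusted p = 0.233). Among 22 other Ets factors (median 0.16) Fli1, a factor of endothelium and platelets, stood at 0.74 (adjusted p = 0.362) and Elk3, a factor that ERK activates, at 0.29 (0.04 without D0 replicate 3). Spib, a factor of B cells and dendritic cells, stood at -0.78 (adjusted p = 0.371). Ets1 ranged from 105 to 330.2 CPM at D14 and from 26.1 to 124 CPM at D0, and its groups overlapped. The relatives of Phlda1 stood at -1.37 (Phlda2, at most 1.85 CPM in a library) and -0.29 (Phlda3).

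Immediate early genes, which many stimuli induce within minutes through ERK and other routes, were higher in the D14 libraries as a sum. Their summed level was 2534 to 3125 CPM at D14 and 1149 to 1974 CPM at D0. All 12 had a positive log2 fold change, against 46.9% of all genes tested, with a median of 0.90. Above D0 without overlap lay 10 of the 12 (83.3%), against 10.9% of all genes tested. At an unadjusted p under 0.05 stood 8 (66.7%), all higher at D14, against 5.48% of all genes on the higher side. In edgeR 0 of the 12 passed an adjusted p of 0.05. DESeq2 called 6 of the 12, Fos, Fosb, Egr1, Atf3, Nr4a1 and Klf4, and limma-voom called 0. Fos and Egr1 are also ERK output genes, so they were already counted among the 134 pathway genes and their DESeq2 calls above. Fosb had 21.1, 82.4 and 23.6 CPM at D14 and 5.46, 8.82 and 6.60 CPM at D0. Its log2 fold change was 2.60 (adjusted p = 0.320) and 1.68 without D14 replicate 2, the highest library. Egr1 stood at 1.04 (adjusted p = 0.320), Btg2 at 0.81 (adjusted p = 0.364) and Dusp1 at 0.67 (adjusted p = 0.492). Without D0 replicate 1, the lowest library for Btg2 and Dusp1, these stood at 0.56 and 0.30. The part of these early responses, or of tissue handling, in the level of Spry4 was not tested. In D0 replicates 1, 2 and 3 the early genes summed to 1149, 1974 and 1747 CPM beside 43.7, 58.3 and 44.0 CPM of Spry4. In D14 replicates 1, 2 and 3 they summed to 3125, 2752 and 2534 CPM beside 197, 203 and 182 CPM of Spry4. The highest early gene sum and the highest Spry4 fell in the same library at D0 but not at D14. The lowest sum and the lowest Spry4 fell in the same library on both days, at D0 by 43.7 against 44.0 CPM of Spry4.

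The genes most like Spry4 over the 6 libraries, among 10558 named genes of at least 10 CPM on average, were Ackr3 (Pearson r of log2 CPM 0.994), a scavenger receptor of the chemokine CXCL12, Irs2 (0.992), an adaptor of insulin and IGF receptors, Eppk1 (0.991), a cytoskeletal linker, Fgf10 (0.990) and Svbp (0.990), a partner of vasohibins. Ackr3 averaged 94.3 ± 7.98 CPM at D14 and 44.0 ± 4.36 CPM at D0, and Irs2 140.2 ± 11.7 and 46.9 ± 4.41 CPM (SD, n = 3). Irs2 also passed the test (log2 fold change 1.58, adjusted p = 0.0265), and its adjusted p was 0.022 without D0 replicate 3 and 0.0683 to 0.218 without any other library. That call was also lost without scaling factors (adjusted p = 0.0537). A gene that separates the days with little spread within them ranks high by this measure. Spry1 was most like Fosl2 (0.990) and Apold1 (0.990), an endothelial early response gene. Spred1 was most like Rxra (0.998) and the endothelial Ets factor Erg (0.997), and Spred2 most like Tbc1d32 (0.998) and Arid2 (0.997). Etv5 was most like Sdc1, syndecan-1 of epithelium and plasma cells (0.993), and Plb1 (0.991). Phlda1 was most like Nfyc (0.984) and Scap (0.973), Spry2 most like H2-Q7 (0.978) and Ccdc134 (0.970), Spred3 most like Rnf181 (0.996) and Hmox1 (0.995), and Etv4 most like Fubp3 (0.981) and Ppp1r14c (0.975).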

How the data were processed

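Lungs at D14 and D0 were sequenced as 3 libraries each. TRIzol extraction and an NEB library kit are given per the labels' protocols. The extraction text names macrophages, while the tissue label and titles give lungs. The submitters' processing notes name the build GRCm38 and the tools edgeR, StringTie 1.3.4b, HISAT2 2.1.0 and CASAVA 1.8 without saying what each did. How strand was treated, and which annotation was counted, was not given in these sources. The table deposited by the authors holds estimated counts for each symbol with no depth scaling, and all values used were whole. Of 29757 lines, 4 were left out (2 empty, 2 not whole), and 50 repeated a symbol, where the name stayed with the line of highest total.

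edgeR 4.0.16 in R 4.3.3 tested all 17686 genes left by its default filter, by a two-sided quasi-likelihood F test with robust estimation and TMM factors, with Benjamini-Hochberg adjustment over all of them. The standard error is the log2 fold change divided by the root of F, and the 95% interval uses the moderated degrees of freedom. log2 CPM used a prior count of 2. The members and lists were chosen with earlier results of these data known. Genes named from a list are those past the threshold, or else its 2 genes of smallest p and its 2 most abundant. The likeness rule left out the members and symbols of unnamed models, and named 5 genes for Spry4 and 2 for each other member. Genes given only for a DESeq2 count or a marker check, and Spry3, fall outside this rule. Some genes that the rule names are not reported here. Intervals cover counting and library spread as fitted, and depth per library is given with the results. Each pair of libraries differed by more than sampling noise (chi-square over degrees of freedom at least 28.5). Positions and transcript lengths are from GENCODE M21 and start regions from RefSeq. Simulated counts with known changes were used to check the test. There the fold changes were recovered without bias, but false calls made up a larger share than the nominal threshold allows and most changes of the smaller size were missed. Alternatives were DESeq2 1.42.0, limma-voom (limma 3.58.1), leaving each library out in turn, the replicate number as a block, estimation without the robust step, RLE or no scaling factors, and either no filter or one that asks for 1 CPM in 3 libraries.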

Additional observations from a re-analysis of the deposited data

How the results depend on the processing

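The count of genes past an adjusted p of 0.05 over the whole table was 6, with 26 under no filter on low counts, 247 with DESeq2, 0 with the replicate block and 0 to 22 when 1 library was left out. The cause of the differences between tools was not tested. The count among the 9 genes was 1, with 0 under the replicate block and 0 to 1 when 1 library was left out, where fewer libraries enter the fit. It was 0 without any D14 library and without D0 replicate 1 or 2. Spry4 kept a log2 fold change of 1.93 to 2.15 over the 14 alternatives, with 2.01 and an adjusted p of 0.128 under the replicate block. With that block 1483 genes, Spry4 among them, stood at an unadjusted p under 0.05 against 2223 without it. Irs2 had an adjusted p of 0.200 under the block. Same-numbered D14 and D0 libraries had deviations correlated at 0.119, -0.055 and -0.097, so the numbers were not taken to pair the samples. Of the genes of the pathway lists, 9 passed with DESeq2 and 0 to 1 when 1 library was left out. Of 72 named genes, 12 turned sign under at least 1 alternative, and 0 of these values passed the threshold. Low counts limit Etv4 and Spred3, and 3 libraries per day limit every gene.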
